A study of Mus musculus with 6 samples.

Results

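The *Hox* genes of the 4 mouse clusters, *HoxA* to *HoxD*, were examined in whole bone marrow RNA-seq counts of *MxCDX2* and control mice. The members were 38 listed genes matched by gene identifier, 10 in *HoxA*, 10 in *HoxB*, 9 in *HoxC* and 9 in *HoxD*, of 39179 genes in the count files. An identifier was found for 37 of them, and *Hoxd4* was not analysed here. *MxCDX2* mice (*RsCDX2::Mx1Cre*, n = 3) carry the human *CDX2* coding sequence at *Rosa26* behind a floxed stop, and the *Mx1* promoter, which responds to interferon, drives Cre and so releases *CDX2*. The 3 control mice were littermates of 3 different genotypes: control 1 carried *RsCDX2* alone, control 2 carried *Mx1Cre* alone and control 3 was wild type. Genotype and mouse therefore cannot be told apart among controls. All 6 mice, aged 3 months, had been given poly(I:C) at 10 µg/g in 3 intraperitoneal doses, and the marrow was taken 6 weeks later. *Mx1Cre* acts in several interferon-responsive cell types, and the marrow was not sorted.

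*Hox* genes encode homeodomain transcription factors whose order along a cluster follows the order of their expression domains in the embryo, from anterior (low numbers) to posterior (high numbers). Genes with the same number in different clusters are paralogues. CDX proteins are homeodomain factors that activate central and posterior *Hox* genes in the embryo, and the comparison asked which *Hox* transcripts differ when CDX2 is expressed in marrow. In blood formation, *HoxA* genes around *Hoxa9* and their cofactor *Meis1* are expressed in stem and progenitor cells and decline as cells mature, and *Hoxb4* is known for its capacity to expand stem cells when it is overexpressed.

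The libraries held 38646101 to 49899650 reads on genes, of which 516 to 1639 fell on *Hox* members. Values below are normalized counts, that is reads scaled to the mean library size after TMM (trimmed mean of M values) adjustment. *Cdx2*, the gene that checks the labels, had 5.11 normalized counts in control 1 and 0 in the other controls, against 161, 152 and 159 in the *MxCDX2* mice. Reads of the human transgene and of mouse *Cdx2* cannot be told apart in these counts. The wild-type control stood apart from the other control mice on the second principal component, which held 15.9% of the variance, and it was the highest of the 3 controls for 10 of the 12 tested *Hox* members, against 41.2% of all tested genes. Results that rest on this mouse are therefore given with and without it. All 80 genes of the 9 marrow cell type lists (stem and progenitor, erythroid, megakaryocyte, B lineage, T and NK lineage, monocyte, neutrophil, bone and stroma, endothelial) were detected.

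Of the 37 members, 6 had no read in any mouse, 31 had at least 1 read, and 12 had enough reads for the default filter of edgeR. None of these 12 passed both thresholds (log2 fold change beyond 1 in either direction, and a p-value below 0.05 from edgeR's quasi-likelihood test after Benjamini-Hochberg adjustment over 15980 genes), where 4.59% of all tested genes passed as higher and 9.03% as lower in *MxCDX2* mice. At an unadjusted p-value below 0.05 there were 6 of 12 members, beside 36.1% of all tested genes, and limma voom called 0, beside 12.9% of all tested genes. Only *Hoxb4* had an adjusted p-value below 0.05 in edgeR, with a fold change just under the threshold. When every gene with at least 1 read was fitted, 1 of 31 members passed as higher (*Hoxd3*) and 0 as lower. The backgrounds were 3.10% higher and 5.95% lower among 25488 genes. Of the 31 members with a read, DESeq2 called 4, *Hoxd3* as higher and *Hoxa7*, *Hoxa9* and *Hoxa10* as lower. Its backgrounds were 4.69% higher and 10.8% lower among the genes to which it gave an adjusted p-value. It gave none to *Hoxa11*, *Hoxa13*, *Hoxb13*, *Hoxc9*, *Hoxc13* and *Hoxd9*, so fewer than 31 members could be called. In the plain ordering of mice, *Hoxb3* and *Hoxb4* were above all controls in all 3 *MxCDX2* mice and *Hoxa7*, *Hoxa9* and *Hoxa10* were below, 2 and 3 of the 12 tested members, where 21.4% and 20.7% of all tested genes did so. These shares are near the background, and the calls of the fit on every gene and of DESeq2 are near or below it. An exact permutation of 3 mice against 3 cannot go below p = 0.1.

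**Figure D1:**
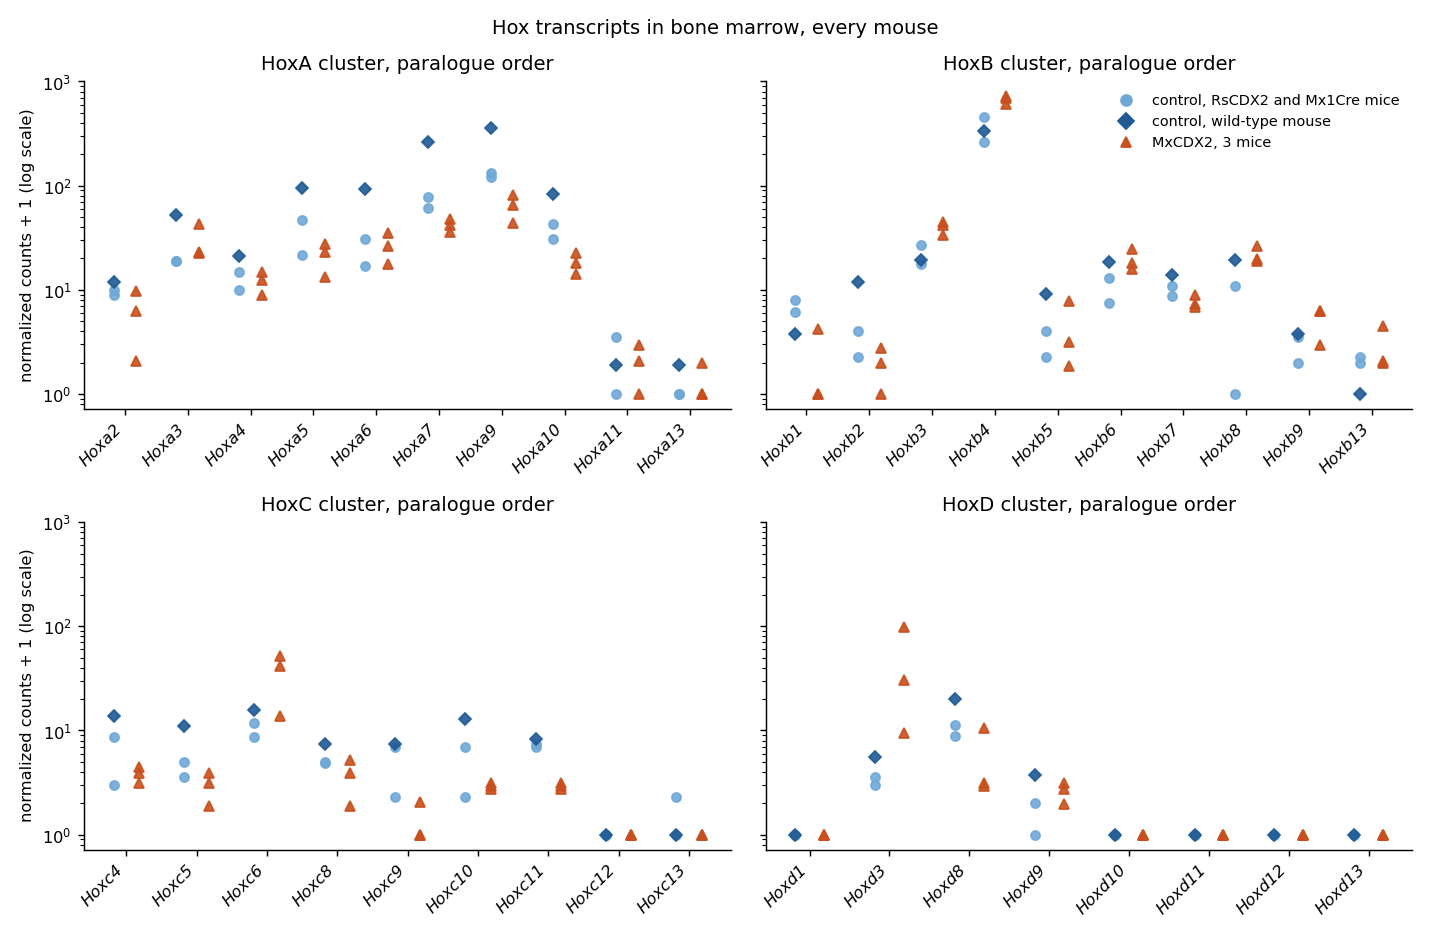
Normalized counts plus 1 (log scale) of every *Hox* member with an identifier in the files, by cluster and in paralogue order, with a symbol for each of the 6 mice. *Hoxb4* has the highest mean in both groups, although *Hoxa9* exceeds it in the wild-type control (dark diamonds), which is the highest mouse for *Hoxa5*, *Hoxa6*, *Hoxa7*, *Hoxa9* and *Hoxa10*, and *Hoxd3* lies between 8.47 and 97.0 in *MxCDX2* mice against at most 4.56 in controls.

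Summed by cluster, *HoxA* was lower and *HoxB* higher in every *MxCDX2* mouse than in every control. Summed *HoxA* counts were 311, 339 and 973 in controls 1, 2 and 3, and 202, 265 and 169.8 in the *MxCDX2* mice. Summed *HoxB* counts were 304, 532 and 426 in controls and 811, 788 and 704 in *MxCDX2* mice. *HoxC* was low in both groups, with 31.9, 38.7 and 69.3 in controls and 54.0, 25.5 and 60.1 in *MxCDX2* mice, and *HoxD* lower still in controls, with 12.8, 10.9 and 26.4 against 12.7, 99.9 and 40.9. Both of these overlapped between the groups. Over all members the sums overlapped as well, at 659 to 1494 in controls and 975 to 1178.5 in *MxCDX2* mice. Within a mouse, where scaling between libraries plays no part, *HoxB* reads were 0.979, 1.57 and 0.438 times *HoxA* reads in the controls. In *MxCDX2* mice they were 4.01, 2.97 and 4.15 times. Both sums already separated the groups in opposite directions, so this ratio had to separate them too. It is a description, and its exact permutation test over mice (p = 0.1, the smallest value possible) therefore adds no support. A single gene made up most of the *HoxB* reads: *Hoxb4* held 78.6% to 86.4% of them in controls and 85.4% to 89.4% in *MxCDX2* mice.

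**Figure D2:**
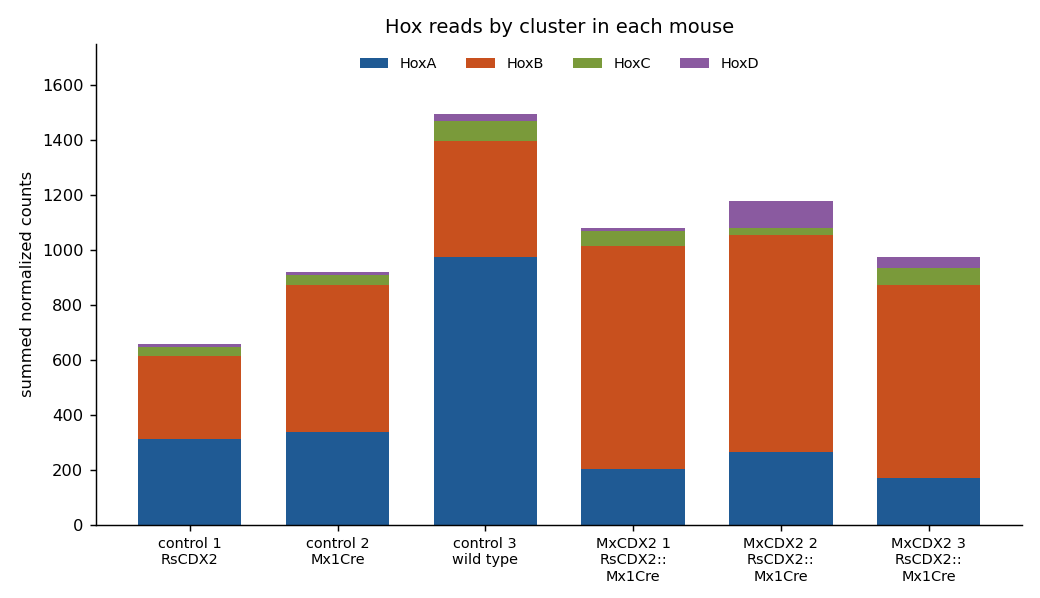
Summed normalized counts of the members of each *Hox* cluster, stacked, in each of the 6 mice. *HoxB* (orange) reaches 704 to 811 in *MxCDX2* mice and 304 to 532 in controls, and *HoxA* (blue) reaches 973 in the wild-type control.

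In *HoxA*, all 7 tested members had a fold change below 0 with all mice, and 9 of the 10 members with any read did so when every gene was fitted. *Hoxa3*, close to 0, was above it in that fit, under scaling by total counts, in limma voom and without the wild-type mouse, *MxCDX2* 1 or *MxCDX2* 3, and *Hoxa6* was above 0 without the wild-type mouse. The largest differences were in the neighbouring genes *Hoxa7*, *Hoxa9* and *Hoxa10*. *Hoxa9* (chr6:52223100-52231089, minus strand, GRCm38), the *HoxA* gene best known for its part in myeloid leukaemia, had 120.1, 131 and 360.1 normalized counts in controls 1 to 3 and 64.6, 80.3 and 42.7 in *MxCDX2* mice. Each *MxCDX2* mouse lay below each control, and the wild-type control lay far above the other two. The log2 fold change was -1.71 (SE 0.52, adjusted p = 0.0587, edgeR), and -0.99 (SE 0.34, adjusted p = 0.0853) without the wild-type mouse. *Hoxa10* (chr6:52231197-52240854, minus strand), a posterior-type gene expressed in early progenitors, had 42.2, 29.8 and 83.0 in controls and 16.9, 21.6 and 13.1 in *MxCDX2* mice. Its fold change was -1.59 (SE 0.48, adjusted p = 0.0567), and -1.04 (adjusted p = 0.103) without the wild-type mouse. *Hoxa7* (chr6:52214491-52221854, minus strand), a central gene, had 60.1, 76.5 and 261 in controls and 35.0, 41.1 and 47.0 in *MxCDX2* mice. Of these 3 genes it moved most without the wild-type mouse, from -1.69 (SE 0.60, adjusted p = 0.0911) to -0.72 (adjusted p = 0.14). DESeq2 placed all 3 genes past the thresholds, with adjusted p-values of 0.00509 for *Hoxa9*, 0.0174 for *Hoxa10* and 0.0209 for *Hoxa7*, and edgeR did so for none of them.

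The more anterior *HoxA* genes overlapped between the groups. *Hoxa5*, a central gene, had 20.4, 45.7 and 93.0 in controls and 22.2, 26.5 and 12.2 in *MxCDX2* mice. It differed by -1.39 on the log2 scale (SE 0.60, adjusted p = 0.149, edgeR), and by -0.70 (adjusted p = 0.374) without the wild-type mouse. *Hoxa6* had 29.4, 15.9 and 92.1 in controls and 25.4, 34.3 and 16.5 in *MxCDX2* mice. Its fold change was -0.86 (SE 0.68, adjusted p = 0.416) and turned to 0.20 (adjusted p = 0.8) without the wild-type mouse. *Hoxa4* had 8.95, 13.9 and 20.1 against 13.8, 7.84 and 11.3 (-0.40, SE 0.44, adjusted p = 0.565), and its fold change was -0.06 (adjusted p = 0.94) without the wild-type mouse. *Hoxa3* had 17.9, 17.9 and 51.1 against 22.2, 42.1 and 21.8, with a fold change of -0.02 (SE 0.54, adjusted p = 0.981) that became 0.08 under scaling by total counts and 0.70 (adjusted p = 0.309) without the wild-type mouse. The wild-type control was the highest control for all 7 tested *HoxA* genes. The remaining members were lower: *Hoxa2* had 7.94 to 10.9 in controls and 1.06 to 8.82 in *MxCDX2* mice, *Hoxa11* at most 2.56 and *Hoxa13* at most 0.98 in any mouse.

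Some other transcripts were also highest in the wild-type mouse among the controls. For the summed B lineage, erythroid, monocyte and neutrophil markers, given further below, this mouse was instead the lowest control. *Meis1*, which encodes a DNA-binding partner of HOX proteins, had 446, 406 and 1935.5 normalized counts in controls and 192, 168.5 and 198 in *MxCDX2* mice, and it fell past both thresholds (log2 fold change -2.32, SE 0.64, adjusted p = 0.0434, edgeR). Without the wild-type mouse its fold change was -1.18 (adjusted p = 0.00876). The call held without each control mouse in turn and was lost without each *MxCDX2* mouse in turn (adjusted p = 0.107 to 0.13). It was also lost in limma voom (adjusted p = 0.117), under scaling by total counts (adjusted p = 0.0505) and when tested against a log2 fold change of 1 (adjusted p = 0.226). The summed stem and progenitor markers (10 genes) were 12823, 11548 and 28126 in controls and 11669.5 to 12616 in *MxCDX2* mice, with 1 of 10 passing as lower and 0 as higher. The summed megakaryocyte markers (8 genes) were 36999, 26725 and 309453 in controls and 12139 to 16160.0 in *MxCDX2* mice, with 1 of 8 passing as lower. The bone and stroma list (12 genes) summed to 34686.5, 17430 and 60624 in controls and 9858 to 17726 in *MxCDX2* mice, with 1 of 12 lower, and the endothelial list (8 genes) to 5946, 5355 and 14211 against 5933 to 7049.8, with 2 of 8 lower. T and NK markers (8 genes) summed to 4668 to 10431 in controls and 2126 to 3986 in *MxCDX2* mice, with 2 of 8 lower. Among all tested genes 4.59% passed as higher and 9.03% as lower. The stem and progenitor, megakaryocyte, and bone and stroma calls of this fit are near that background. In the plain ordering of mice, 6 of 10, 7 of 8 and 6 of 12 genes of these lists were below all controls. Of all tested genes 20.7% were so. In the fit on every gene, 5 of 8 megakaryocyte markers passed as lower, beside 5.95% of all genes fitted. There, 2 of 10 stem and progenitor and 2 of 12 bone and stroma genes passed as lower. None of the defining markers of these lists was at 0 in a group. Their part in the *HoxA* result was not tested, and in whole marrow fewer cells of a type and less RNA per cell cannot be told apart.

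**Figure D3:**
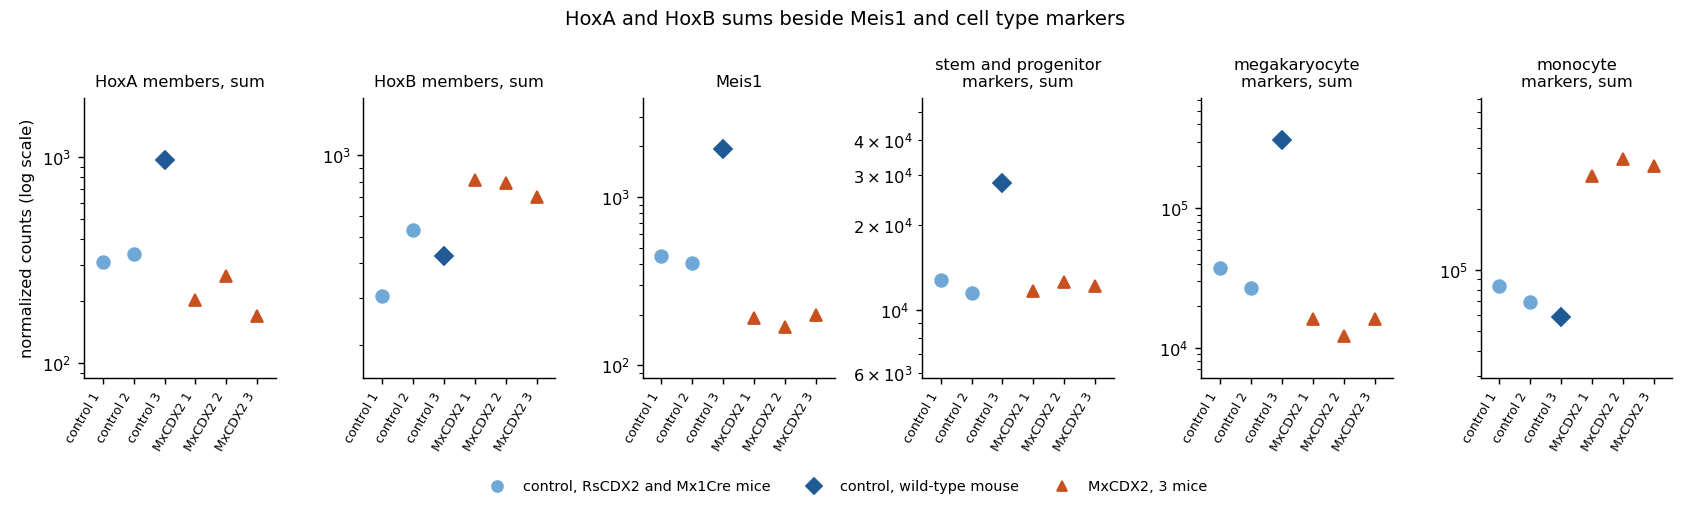
Normalized counts (log scale) in each mouse of the *HoxA* sum, the *HoxB* sum, *Meis1* and the summed stem and progenitor, megakaryocyte and monocyte markers. The wild-type control (dark diamond) is the highest mouse for the *HoxA* sum (973), *Meis1* (1935.5) and the stem and progenitor and megakaryocyte lists, but not for the *HoxB* sum (426).

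In *HoxB*, the difference was carried by *Hoxb4* and *Hoxb3*, which lie next to each other. *Hoxb4* (chr11:96318267-96321638, plus strand) had the highest mean count of the members in both groups, with 262, 459.7 and 335 normalized counts in controls (mean 352, n = 3) and 726, 688 and 602 in *MxCDX2* mice (672 ± 63.6, SD, n = 3), a ratio of means of 1.91. All *MxCDX2* mice were above all controls, and the wild-type mouse lay between the other controls. In that mouse *Hoxa9*, at 360.1, was above *Hoxb4*. The log2 fold change was 0.93 (SE 0.24, adjusted p = 0.0366, edgeR), below the fold threshold of 1, and it stayed between 0.77 and 1.17 when each mouse was left out. The adjusted p-value was below 0.05 in 1 of those 6 fits, the one without control 2 (0.0263), and 0.061 to 0.0985 in the others. Scaling by total counts moved the median of all genes by 0.12 and the *Hoxb4* value to 1.04, which then passed. *Hoxb3* (chr11:96323326-96347930, plus strand), an anterior gene, had 16.6, 25.8 and 18.2 in controls and 32.8, 41.1 and 43.5 in *MxCDX2* mice. Its fold change was 0.95 (SE 0.33, adjusted p = 0.0838), and 0.89 (adjusted p = 0.134) without the wild-type mouse. Of its exon bases 52.9% overlap *Hoxb3os* on the opposite strand, so its count may lack or hold reads of that transcript, depending on the strand setting of the counting, which the sources used here do not give. The same limit holds for other members with exon bases overlapped on the opposite strand. These are *Hoxa11* (35.0%), *Hoxb2* (27.3%), *Hoxa7* (20.4%), *Hoxa3* (18.2%), *Hoxd3* (8.8%) and *Hoxb5* (3.6%). *Hoxb4* overlaps no other listed gene.

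Expressed per kb of merged exon, *Hoxb4* stood at 137 normalized counts in controls and 262 in *MxCDX2* mice. The next members in controls were *Hoxa6* at 52.4, *Hoxa7* at 46.0, *Hoxa9* at 36.5 and *Hoxa5* at 28.3 per kb, levels which the spread between the control mice does not separate. In *MxCDX2* mice the next were *Hoxa6* at 29.1, *Hoxc6* at 14.4, *Hoxa7* at 14.3, *Hoxa9* at 11.2, *Hoxa5* at 10.8 and *Hoxd3* at 10.7 per kb. *Hoxb4* thus had the highest mean in both groups per kb as well.

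The other *HoxB* genes overlapped between the groups. *Hoxb6* had 6.39, 11.9 and 17.3 in controls and 16.9, 23.5 and 14.8 in *MxCDX2* mice (log2 fold change 0.60, SE 0.45, adjusted p = 0.385, edgeR). *Hoxb8*, which encodes a factor known to hold myeloid progenitors in an immature state when overexpressed, had 0, 9.93 and 18.2 in controls and 18.0, 18.6 and 25.2 in *MxCDX2* mice (1.07, SE 0.85, adjusted p = 0.417). *Hoxb7* had 7.67, 9.93 and 12.8 in controls and 6.36, 5.88 and 7.83 in *MxCDX2* mice, below the filter. *Hoxb1*, *Hoxb2*, *Hoxb5*, *Hoxb9* and *Hoxb13* had at most 10.9 normalized counts in any mouse. For *Hoxb2* the summed reads were 16 in controls and 3 in *MxCDX2* mice, a ratio of 0.174 (95% exact interval 0.0325 to 0.607), and for *Hoxb1* 14 and 3, a ratio of 0.199 (0.0366 to 0.712). These intervals, like the others given for ratios of summed reads, cover counting error only and not the spread between mice. Neither gene passed when every gene was fitted (adjusted p = 0.227 and 0.278, edgeR).

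Opposite *Hoxb5* and *Hoxb6*, on the other strand, the transcript *Hoxb5os* (chr11:96291024-96306910, minus strand) was nearly absent in controls. It had 0, 1 and 1 reads in the controls and 7, 14 and 15 in the *MxCDX2* mice, so every *MxCDX2* mouse was above every control. The ratio of summed reads was 16.7 (95% exact interval 4.30 to 143). In the fit on every gene it passed both thresholds (log2 fold change 3.87, SE 0.81, adjusted p = 0.0141, edgeR), and it did so in 5 of 6 fits with a mouse left out, the exception being the fit without *MxCDX2* 3 (adjusted p = 0.058). *Hoxb5* itself had 1.28 to 8.21 normalized counts in controls and 0.87 to 6.86 in *MxCDX2* mice. *Hoxb3os* had 24.3, 22.8 and 62.0 in controls and 60.4, 45.1 and 62.7 in *MxCDX2* mice (0.61, adjusted p = 0.393). Without the wild-type mouse, its fold change was 1.26 (adjusted p = 0.0375), past the thresholds.

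In *HoxC*, 1 gene went one way and the others had values on the other side. *Hoxc6* (chr15:102998257-103011881, plus strand), a central gene, had 7.67, 10.9 and 14.6 normalized counts in controls and 40.3, 12.7 and 51.4 in *MxCDX2* mice. *MxCDX2* mice 1 and 3 were above all controls, and *MxCDX2* mouse 2 lay among them. The log2 fold change was 1.63 (SE 0.58, adjusted p = 0.0907, edgeR). Of the 6 fits with a mouse left out, it passed in 1, the one without *MxCDX2* mouse 2 (2.03, adjusted p = 0.0332). That fit drops the mouse that lay among the controls. Over the 6 fits the fold change ranged from 1.24 to 2.03, with adjusted p-values up to 0.262. *Hoxc4*, *Hoxc5*, *Hoxc8*, *Hoxc9*, *Hoxc10* and *Hoxc11* each had at most 12.8 in controls and at most 4.24 in *MxCDX2* mice. Their fold changes in the fit on every gene were all below 0, and none passed. *Hoxc9* had 1, 6 and 7 reads in controls and 1, 0 and 0 in *MxCDX2* mice (log2 fold change -3.39, SE 1.18, adjusted p = 0.0998), and *Hoxc11* had 6.39, 5.96 and 7.29 normalized counts in controls and 2.12, 1.96 and 1.74 in *MxCDX2* mice (-1.67, SE 0.64, adjusted p = 0.136). All *MxCDX2* mice were below all controls for *Hoxc11*, while for *Hoxc9* control 1 and *MxCDX2* 1 were tied at 1 read. For *Hoxc10* the summed reads were 20 in controls and 6 in *MxCDX2* mice, a ratio of 0.278 (95% exact interval 0.0914 to 0.718). *Hoxc13* had 1 read in all, and *Hoxc12* none. Exons of *Hoxc5* and *Hoxc10* overlap each other on the same strand (5.4% and 8.7% of their exon bases), and reads there count for neither gene.

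In *HoxD*, *Hoxd3* had the most reads in each *MxCDX2* mouse. *Hoxd3* (chr2:74711927-74748442, plus strand), an anterior gene, had 2, 2 and 5 reads in controls and 8, 99 and 34 in *MxCDX2* mice, or 2.56, 1.99 and 4.56 against 8.47, 97.0 and 29.6 normalized counts. All *MxCDX2* mice were above all controls, with a wide spread among themselves. The ratio of summed reads was 14.5 (95% exact interval 7.44 to 32.4, counting error only). In GENCODE M21, 13.2% of the exon bases of *Hoxd4*, which was not analysed here, overlap *Hoxd3* on the same strand, so the *Hoxd3* count may hold reads from *Hoxd4* transcripts. The default filter left the gene out, and in the fit on every gene it rose past both thresholds (log2 fold change 3.85, SE 0.92, adjusted p = 0.0247, edgeR). Without *MxCDX2* mouse 2, which had the most reads, the fold change was 2.63 (adjusted p = 0.0722), and the call was also lost without control 1 (adjusted p = 0.0716) and without control 2 (adjusted p = 0.0586). *Hoxd8* had 10.2, 7.94 and 19.1 in controls and 2.12, 1.96 and 9.58 in *MxCDX2* mice (-1.36, SE 0.73, adjusted p = 0.289), and *Hoxd9* at most 2.74 in any mouse. *Hoxd1*, *Hoxd10*, *Hoxd11*, *Hoxd12* and *Hoxd13* had no read in any mouse, a count that allows up to 3 reads in each library.

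**Figure D4:**
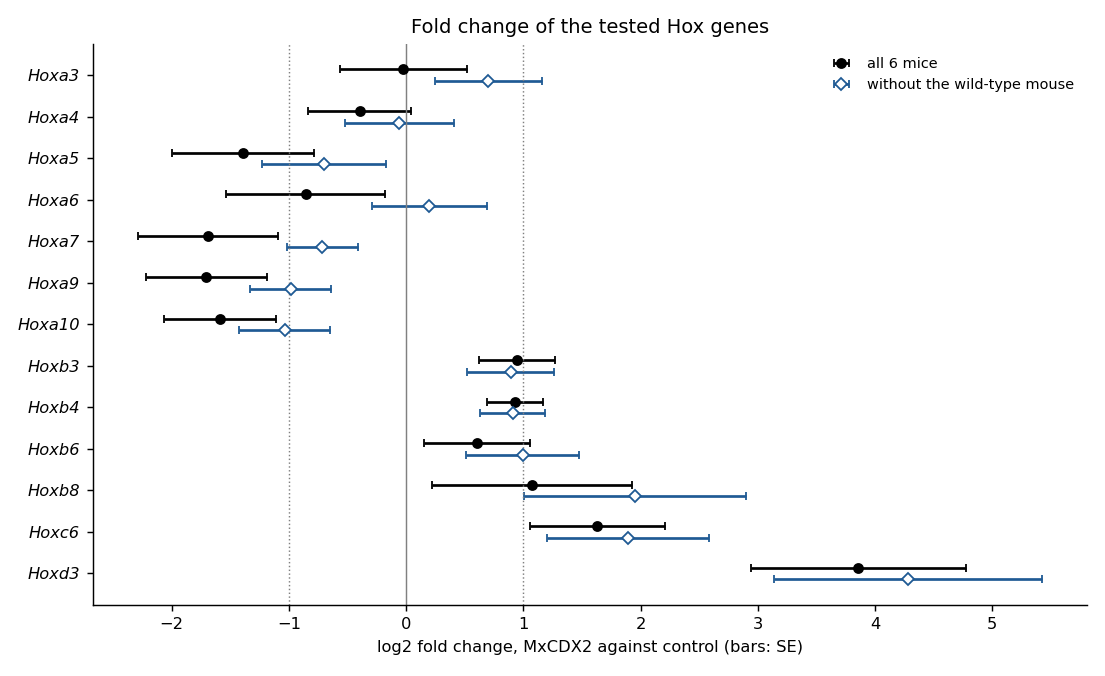
Log2 fold changes of the 12 tested *Hox* members and of *Hoxd3*, *MxCDX2* against control, with standard errors, in all 6 mice (filled) and without the wild-type control (open). *Hoxd3* comes from the fit on every gene, and dotted lines mark a log2 fold change of 1 in each direction. *Hoxa3* and *Hoxa6* change sign without the wild-type mouse, and *Hoxb3* and *Hoxb4* stay at 0.89 to 0.95.

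The members were also summed across the clusters by paralogue number. Group 3 summed to 37.1, 45.7 and 73.8 in controls and 63.6, 180.3 and 94.9 in *MxCDX2* mice, and group 4, which is mostly *Hoxb4*, to 279, 476 and 367 against 742, 698.5 and 616. Group 9, mostly *Hoxa9*, summed to 124, 139 and 372 in controls and 73.1, 83.3 and 49.6 in *MxCDX2* mice. Group 10 summed to 43.4, 35.7 and 94.8 against 19.1, 23.5 and 14.8. Posterior members (numbers 9 to 13, 16 genes) together had 179, 182 and 476 in controls and 96.4, 113 and 69.6 in *MxCDX2* mice, with no overlap, and central members (4 to 8, 14 genes) had 428, 675 and 919.9 against 916, 876 and 803. The posterior ratio of means was 0.333 with all mice and 0.515 without the wild-type mouse. Of these 16 genes 5 had no read, and most of the sum was *HoxA*. Posterior *HoxA* members had 165, 161 and 445 in controls and 82.6, 105 and 55.7 in *MxCDX2* mice. At low counts, the ratio of means was 0.237 for posterior *HoxC*, and on the other side of 1 for *HoxB* (2.10) and *HoxD* (1.30). No read of group 12 was found, and groups 11 and 13 had at most 8.95 normalized counts in any mouse.

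The monocyte markers, by contrast, separated the groups in the direction of *HoxB*. Their sum (8 genes) was 58672 to 82981 in controls and 290784 to 352712 in *MxCDX2* mice, with 6 of 8 passing as higher. Erythroid markers (10 genes) summed to 327295 to 415888 in controls and 14948 to 65079.7 in *MxCDX2* mice, with 10 of 10 lower. B lineage markers (8 genes) summed to 18602 to 50884 against 4289 to 14058, with 4 of 8 lower, and neutrophil markers (8 genes) to 954379 to 1565010.0 against 472409 to 617819, with 4 of 8 lower. Beside these counts, 4.59% of all tested genes passed as higher and 9.03% as lower. In each of these lists the lowest control sum was that of the wild-type mouse. The neutrophil markers did not all go 1 way: 2 of 8 had a fold change above 0, and 1 was above all controls in every *MxCDX2* mouse. The part of the marker shifts of all these lists in the *HoxB* and *HoxD* values was not tested.

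Genes beside and upstream of the clusters were described from lists. Of 24 genes flanking the 4 clusters, 20 were tested and none passed both thresholds (edgeR). There were 8 of 20 with an unadjusted p-value below 0.05, near the 36.1% of all tested genes, and DESeq2 and limma voom called 0. Their median log2 fold change was -0.04, beside 0.00 over all tested genes. Of 22 non-coding genes inside the clusters with an identifier in the files, 11 had no read, 2 were tested without a call, and *Hoxb5os* passed in the fit on every gene. Most microRNA genes of the clusters were at 0, in libraries made from polyadenylated RNA. Of 46 regulators of *Hox* genes, 43 were tested, and 2 passed as higher and 2 as lower. Among all tested genes 4.59% passed as higher and 9.03% as lower, so these counts are not above the background. *Cdx2* and *Rarg*, a retinoic acid receptor, rose, and *Meis1* and *Cbx7*, a Polycomb subunit, fell. *Rarg* had 1043, 1584 and 2549 normalized counts in controls and 4116.5, 4403 and 4362 in *MxCDX2* mice (log2 fold change 1.31, adjusted p = 0.0252). *Cbx7* had 1762, 2724 and 1716 against 1156, 964 and 944.5 (-1.02, adjusted p = 0.0177). With each mouse left out in turn, *Rarg* kept its call in 2 of 6 fits (lost without control 2 and without each *MxCDX2* mouse, adjusted p = 0.0563 to 0.0799) and *Cbx7* in 3 of 6 (lost without control 2, *MxCDX2* 2 or *MxCDX2* 3, with fold changes of -0.77 to -0.97). *Cbx7* was also just short of the fold threshold when every gene was fitted (-0.99), in limma voom (-0.998) and under scaling by total counts (-0.90). Tested against a log2 fold change of 1, *Cdx2* alone of these 4 regulators kept its call (adjusted p = 0.0195). *Cdx1* and *Cdx4*, the other CDX genes, had no read in any mouse. Trithorax members (14 genes) had 0 calls in either direction, and *Kmt2a*, the gene best known for keeping *Hox* genes active, differed by 0.00 (adjusted p = 0.991).

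Promoter sequence was available from RefSeq (GRCm38.p6) for 22 members, with 24 start sites, and was searched on both strands for TTTAT, the core of the CDX binding motif. This core shares letters with the TATA box, which can hold its reverse complement. It lay in the 250 bases before the start at 9 of 24 member start sites (37.5%), beside 37.3% of all promoters. The longer form ending in TG, written TTTATTG, lay in 1 of 24, beside 4.20% of all promoters. The longer form ending in GG, written TTTATGG, lay in 1 of 24, beside 2.43% of all promoters. The promoters of *Hoxd3*, *Hoxb4*, *Hoxb8* and *Hoxa9* are shown, since these genes carry the values above or, for *Hoxb8*, hold the most matches, and each runs 5′ to 3′ on the strand of its gene, with the core, its longer forms and their reverse complements in capitals. The *Hoxd3* stretch is chr2:74711743-74711992 with 1 match 165 bases before the start, *Hoxb4* is chr11:96318017-96318266 with none, *Hoxb8* is chr11:96281655-96281904 with 6, of which 1 is the longer form ending in TG, and *Hoxa9* is chr6:52227371-52227620 with none. A match describes letters and not binding.
Hoxd3: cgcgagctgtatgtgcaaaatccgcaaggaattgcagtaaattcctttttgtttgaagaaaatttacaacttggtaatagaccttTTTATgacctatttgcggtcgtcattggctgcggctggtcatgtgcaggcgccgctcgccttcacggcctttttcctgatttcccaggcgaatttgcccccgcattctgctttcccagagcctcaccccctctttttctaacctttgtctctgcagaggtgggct
Hoxb4: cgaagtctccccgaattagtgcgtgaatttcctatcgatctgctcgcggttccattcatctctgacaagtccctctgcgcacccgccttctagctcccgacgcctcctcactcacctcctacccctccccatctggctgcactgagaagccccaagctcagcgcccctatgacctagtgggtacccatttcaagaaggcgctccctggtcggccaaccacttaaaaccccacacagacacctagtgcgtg
Hoxb8: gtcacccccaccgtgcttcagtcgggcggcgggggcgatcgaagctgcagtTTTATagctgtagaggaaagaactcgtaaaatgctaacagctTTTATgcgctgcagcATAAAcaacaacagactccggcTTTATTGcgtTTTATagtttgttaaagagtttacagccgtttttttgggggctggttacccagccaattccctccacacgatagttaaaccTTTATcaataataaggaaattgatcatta
Hoxa9: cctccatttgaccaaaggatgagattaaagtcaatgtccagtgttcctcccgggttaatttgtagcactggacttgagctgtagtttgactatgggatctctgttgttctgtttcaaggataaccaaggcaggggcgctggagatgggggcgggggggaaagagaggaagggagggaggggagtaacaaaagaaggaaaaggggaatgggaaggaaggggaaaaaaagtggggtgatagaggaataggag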

How the data were processed

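RNA-seq counts came from bone marrow of 3 *MxCDX2* and 3 control mice. Libraries were made with a stranded mRNA kit. STAR (version 2.5) and GRCm38 were used by the authors for alignment, and HTSeq (version 0.6.1) for counting. The deposited values are raw counts for each mouse, not normalized. The strand setting of the counting was not given in the sources used here. Reads in exons of overlapping genes (2.99% to 3.16%) or in no gene (9.22% to 14.06%) stood on separate lines and were left out of library sizes.

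Members, flanking genes and positions were matched in GENCODE M21. The fits used edgeR 4.0.16 in R 4.3.3 (TMM, filterByExpr, quasi-likelihood test, Benjamini-Hochberg over all tested genes). A call needed a log2 fold change beyond 1 in either direction together with an adjusted p-value under 0.05. A fit on every gene with at least 1 count, DESeq2 1.42.0, limma 3.58.1 (voom), other scalings and filters, and each mouse left out in turn were alternatives. P-values measure the spread between these mice. Members described mouse by mouse had a mean of at least 10 normalized counts in either group, or passed the thresholds in either of the first 2 fits. Regulators were named where they passed, besides *Cdx2*. The members and lists were chosen with earlier results of these data known. Figures were drawn with Python 3.11.15 and matplotlib 3.10.9.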

Additional observations from a re-analysis of the deposited data

How the results depend on the processing

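The number of genes past the thresholds was 2177, and 3471 with no threshold on the fold change, 611 when the test was made against a log2 fold change of 1, and 1205 (without *MxCDX2* 3) to 2406 (without the wild-type mouse) when each mouse was left out. The number of *Hox* members past them was 0, 1 in the fit on every gene (*Hoxd3*), 1 under scaling by total counts and 1 with no fold threshold (*Hoxb4* in both), 4 in DESeq2 (*Hoxa7*, *Hoxa9*, *Hoxa10*, *Hoxd3*), and 0 to 2 with a mouse left out. Those were *Hoxa10* and *Hoxb4* without control 2, *Hoxd3* without *MxCDX2* 1 and *Hoxc6* without *MxCDX2* 2. The log2 ratio of the *HoxA* sums was -1.35, and -1.63 to -0.61 with a mouse left out, the latter without the wild-type mouse. Without its most abundant member, the *HoxB* ratio went from 0.87 to 0.49, *HoxC* from -0.0041 to -1.60 and *HoxD* from 1.61 to -1.15. *Hoxa3* (-0.02) changed sign in the fit on every gene (0.015), under total counts (0.0779) and in voom (0.0708), and ranged from -0.40 to 0.70 with a mouse left out, and *Hoxa6* (-0.86) from -1.26 to 0.20. The cause was not tested. The fits on every gene with a mouse left out were chosen after seeing the data. No paired analysis was possible because the labels number only the *MxCDX2* mice and tie no control mouse to an *MxCDX2* mouse. Low read numbers limit what could be detected for most members.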
